A study of Mus musculus with 6 samples.

Results

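The hearts described here are 3 of the 6 in the series, WT1, WT3 and KO2, in which Myl7 stood at 1 FPKM or more. They were set against the other 3, WT2, KO1 and KO3, in which Myl7 was under 1 FPKM. Myl7 encodes the regulatory myosin light chain of atrial muscle, and the hearts were grouped by its measured level alone, with genotype left aside. FPKM is a count of sequenced fragments scaled for transcript length and for depth. The 6 hearts came from adult mice 8 weeks after transverse aortic constriction (TAC), a banding of the aortic arch that loads the left ventricle with pressure. KO mice carried a body-wide, constitutive deletion of miR-27b made with TALENs on the C57BL/6 background, and WT mice were C57BL/6J. Each genotype gave 3 hearts, RNA was extracted from heart tissue with TRIzol, and every heart had undergone TAC, so neither side holds an unloaded heart. The Myl7-high hearts were 2 WT/TAC and 1 KO/TAC, against 1 WT/TAC and 2 KO/TAC among the Myl7-low hearts, and genotype is therefore unevenly spread over the split. The microRNA itself was not measured by these gene-level tables.

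A mouse heart is built from chambers whose muscle cells use different contractile proteins. Atrial cells carry the light chains Myl7 and Myl4, sarcolipin and large stores of atrial natriuretic peptide, whereas ventricular cells carry Myl2 and Myl3 and, when stressed, take up part of the fetal and atrial programme. Around the muscle lie fibroblasts, vessels, valves, a mesothelial outer layer, conduction tissue and, in the grooves between atria and ventricles, fat.

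Myl7 was listed at 8140.2, 1135 and 333 FPKM in WT1, WT3 and KO2, against 0.23, 0.25 and 0.66 FPKM in WT2, KO1 and KO3. The value nearest above the threshold of 1 FPKM was 333 FPKM, in KO2, and the value nearest below it was 0.66 FPKM, in KO3. These values chose the members and carry no test. Because the same libraries serve for every other gene, no p-value is given for any difference between the sides. Differences are means of log2(FPKM + 0.5) in the Myl7-high hearts minus those in the Myl7-low hearts, with their standard error (3 against 3 hearts) as a measure of spread. The added 0.5 FPKM makes them understate the fold of low genes. Values of single hearts are given in the order WT1, WT3 and KO2 for the Myl7-high hearts and WT2, KO1 and KO3 for the Myl7-low hearts. A gene is said to be higher or lower when the 3 values on one side all lay beyond the 3 on the other and the log2 difference was at least 1 in size.

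One Myl7-high heart stood apart before any gene was compared. WT1 had 81 FPKM of Myl2, the ventricular regulatory light chain, against 9735 to 14329 FPKM in the other 5 hearts, and its Irx4, a transcription factor of ventricular muscle, was listed at 0.08 FPKM. The library labelled WT1 thus held little of these defining markers of ventricular muscle, while all 6 carried Tnnt2 and Myh6, sarcomere genes of both chambers. Spearman's rho over the 12519 genes compared lay between 0.924 and 0.941 for WT1 with each other heart, and between 0.955 and 0.988 among those 5. Steps among low FPKM values gave an estimated depth of 13000000 to 15750000 fragments per heart. Counts below are given with and without WT1.

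Genes averaging 0.5 FPKM or more over the 6 hearts numbered 12519, and 211 of these were higher in the Myl7-high hearts, 1.69% of those compared, and 35 were lower, 0.280%. Without WT1, 140 of 12429 genes were higher, 1.13%, and 26 were lower, 0.209%; 107 of the 140 and 18 of the 26 were among the genes found with WT1. Leaving out another heart gave larger counts in most cases, up to 390 higher and 117 lower genes without KO2. The lower genes numbered 92, 93 and 58 without WT3, KO3 and WT2, and 35 without KO1. With a heart fewer, non-overlap is easier to reach, and its part in these counts was not tested. WT1 was the highest of the 6 hearts in 172 of the 211 higher genes and the lowest in 26 of the 35 lower genes. The Myl7-high and Myl7-low hearts did not overlap, whatever the size of the difference, in 1155 genes with higher values, 9.23%, and 1050 with lower values, 8.39%. The median log2 difference of all genes was -0.01. Since the hearts were selected on a gene of the same libraries, these shares are a background to read the groups against and no more. The filter used the mean over all 6 hearts, so a gene with almost no signal on one side entered only through the other. For such genes the direction was fixed by the filter.

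The atrial muscle genes made up the largest differences. Myl4, the essential light chain of atrial myosin, had 11725, 1522 and 472 FPKM in WT1, WT3 and KO2, against 2.34, 2.48 and 3.42 FPKM in WT2, KO1 and KO3. Sln encodes sarcolipin, a small inhibitor of the sarcoplasmic reticulum calcium pump, and had 4131, 401 and 122 FPKM in the same 3 hearts, against 0, 0 and 0.44 FPKM in the Myl7-low hearts. The sides lay far apart in both genes, with WT1 highest and KO2 lowest of the Myl7-high hearts. Mybphl, a myosin-binding protein H-like gene of atrial muscle, followed the same order, with 870.4, 97.4 and 29 FPKM in the Myl7-high hearts, against 0, 0.63 and 0.12 FPKM in the Myl7-low hearts. The log2 differences were 9.90 ± 1.52 for Sln, 9.31 ± 1.36 for Myl4 and 7.59 ± 1.47 for Mybphl. Leaving WT1 out gave 8.49, 8.04 and 6.25. Sln and Mybphl passed the expression filter only through the Myl7-high hearts. Within WT/TAC hearts the Myl4 difference was 10.54, from WT1 and WT3 against WT2, and within KO/TAC hearts it was 7.11, from KO2 against KO1 and KO3.

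Myl7, which set the split, and Myl4, Sln and Mybphl stood in similar proportion between the 3 Myl7-high hearts. WT3 held 13.9% of the WT1 level of Myl7, 13% of Myl4, 9.71% of Sln and 11.2% of Mybphl. KO2 held 4.1%, 4.03%, 2.95% and 3.34% of the same 4 genes. Over the 146 higher genes that ran in the order WT1, WT3, KO2, the median level in WT3 was 25.8% and in KO2 16.7% of that in WT1. Because these genes were taken for that order, a fall from WT1 to WT3 to KO2 was fixed, and only its size is descriptive. In such bulk samples, fewer cells of a type and less RNA per cell cannot be told apart.

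Upstream sequences of 3 chamber genes are shown, chosen from a larger set that was searched. Myl7 set the split, Bmp10 was higher but in another order of hearts, and Myl3 is a ventricular light chain for comparison. Each run is the 250 bases before the annotated start in RefSeq GRCm38.p6, 5′ to 3′ on the gene's strand. Capitals mark the motif AGATAA, a word read by zinc-finger factors such as Gata4, in Bmp10, and the CArG box of serum response factor in Myl7 and Myl3. Each was searched on both strands, and the motifs do not overlap here. Myl7 (chr11:5898783-5899032, minus strand) and Myl3 (chr9:110763428-110763677, plus strand) each hold a CArG box, and Bmp10 (chr6:87428744-87428993, plus strand) holds AGATAA at 2 places.
Myl7: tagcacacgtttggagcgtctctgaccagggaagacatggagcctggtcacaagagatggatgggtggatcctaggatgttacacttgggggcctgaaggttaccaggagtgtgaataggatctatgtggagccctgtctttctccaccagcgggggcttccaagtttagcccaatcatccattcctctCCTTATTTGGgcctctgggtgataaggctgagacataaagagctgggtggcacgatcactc
Bmp10: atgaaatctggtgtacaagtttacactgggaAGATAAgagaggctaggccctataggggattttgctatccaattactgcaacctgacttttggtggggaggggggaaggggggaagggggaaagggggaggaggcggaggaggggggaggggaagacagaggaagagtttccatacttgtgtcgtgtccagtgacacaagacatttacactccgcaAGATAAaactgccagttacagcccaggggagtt
Myl3: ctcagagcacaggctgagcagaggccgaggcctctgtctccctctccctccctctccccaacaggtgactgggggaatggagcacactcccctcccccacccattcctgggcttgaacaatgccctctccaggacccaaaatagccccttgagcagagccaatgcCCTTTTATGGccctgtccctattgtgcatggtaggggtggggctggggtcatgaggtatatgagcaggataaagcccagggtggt
AGATAA occurs in 10.25% and the CArG box in 1.40% of 27025 such windows, one per gene. Of the 211 higher genes, 149 had a window in the table; 15 of these, 10.07%, held AGATAA and 3, 2.01%, held a CArG box. Of the 35 lower genes, 23 had one; 6 of these, 26.09%, held AGATAA and 1, 4.35%, held a CArG box. Among 9962 windows of the genes compared, the shares were 5.71% and 1.16%. These are letter matches only. AGATAA also occurs in the windows of Myl2, a ventricular gene, and of Mybphl and Hamp, whereas Myl4, Stard10, Sbk2 and Sbk3 held no match. The sequences shown are examples and mark no contrast between chambers. Sln, Dkk3 and Tbx5 have no entry in that table.

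**Figure D1:**
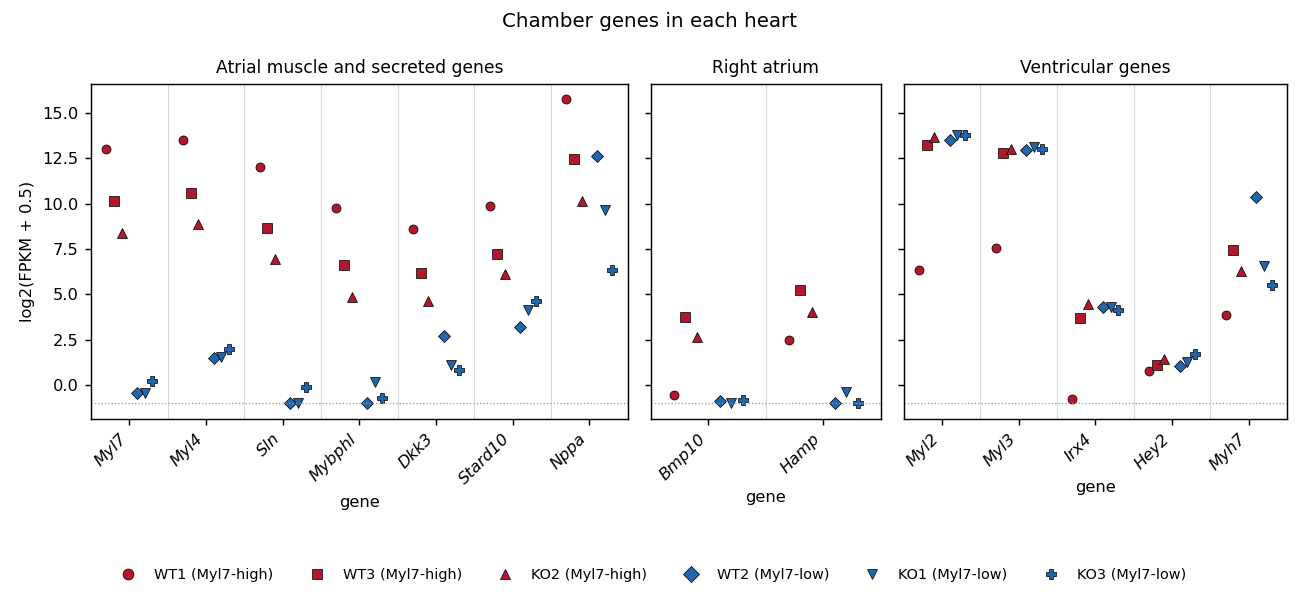
Levels of chamber genes, as log2(FPKM + 0.5) on the vertical axis, in WT1, WT3 and KO2 (red) and WT2, KO1 and KO3 (blue), one point per heart; the dotted line is 0 FPKM. WT1, WT3 and KO2 lie apart from the other 3 hearts for Myl4, Sln and Mybphl, Bmp10 is near 0 in WT1, and WT1 alone is far below the rest for Myl2, Myl3 and Irx4.

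Of the 11 atrial contractile and secreted genes in the list used, all passed the filter, 7 were higher and none was lower, with a median log2 difference of 3.77. Without WT1, 7 were higher. The share of higher genes over all genes compared was 1.69%. Dkk3, a secreted Dickkopf protein, had 394, 70.9 and 24.2 FPKM in WT1, WT3 and KO2, against 5.94, 1.66 and 1.27 FPKM in the Myl7-low hearts. Stard10, a lipid transfer protein, had 947, 151 and 69.8 FPKM in the Myl7-high hearts, against 8.68, 17.3 and 24 FPKM in the Myl7-low hearts, so that it was present on both sides and merely more abundant on one. The remaining 4 members overlapped between the sides. Nppa, which encodes atrial natriuretic peptide and is induced in loaded ventricles, had 55795, 5647 and 1114 FPKM in WT1, WT3 and KO2, against 6236, 803 and 79.4 FPKM in WT2, KO1 and KO3. WT2, without atrial light chains, thus had more Nppa than WT3. Pam, the amidating enzyme that lines atrial granules, had 2486, 588 and 279 FPKM in the Myl7-high hearts, against 388, 226 and 187 FPKM in the Myl7-low hearts, and Clu and Angpt1 overlapped likewise. Npr3, the clearance receptor, had 33.2, 2.72 and 3.69 FPKM in the Myl7-high hearts, against 3.63, 2.65 and 4.96 FPKM in the Myl7-low hearts, high in WT1 alone. In the natriuretic peptide list, 0 of 8 members compared were higher or lower. Npr1, Npr2 and Furin lay higher without overlap, as did 9.23% of all genes compared. Nppb, the brain natriuretic peptide of both chambers, had 1854, 798 and 196 FPKM in the Myl7-high hearts, against 2097, 758 and 208 FPKM in the Myl7-low hearts.

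Both Bmp10 and Hamp had another order than the light chains among the Myl7-high hearts. Bmp10, a bone morphogenetic protein of right atrial muscle in the adult mouse, had 0.19, 12.8 and 5.8 FPKM in WT1, WT3 and KO2, against 0.05, 0 and 0.06 FPKM in the Myl7-low hearts. Hamp, the iron hormone hepcidin, also made by right atrial muscle in mice, had 5.1, 37.1 and 16 FPKM in the Myl7-high hearts, against 0, 0.26 and 0 FPKM in the Myl7-low hearts. WT1, highest for the atrial light chains, was thus the lowest of the 3 for both genes, and both were higher on the Myl7-high side by 2.85 ± 1.28 and 4.72 ± 0.82 log2 units. Both passed the filter only through the Myl7-high hearts, which fixed their direction.

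Among 8 atrial channel, connexin and vagal receptor genes, 3 were higher and none lower, and without WT1 only Kcnj3 remained. Of all genes compared, 1.69% were higher. Kcnj3 and Kcnj5 encode the subunits of the acetylcholine-gated potassium channel. Kcnj3 had 138, 19.8 and 19.9 FPKM in WT1, WT3 and KO2, against 3.83, 9.99 and 14.4 FPKM in the Myl7-low hearts, and Kcnj5 had 74.4, 26.2 and 28.9 FPKM in the Myl7-high hearts, against 10.1, 16.3 and 19.5 FPKM in the Myl7-low hearts. Gja5, connexin 40 of atrial muscle and the conduction bundles, had 73, 5.15 and 4.75 FPKM in the Myl7-high hearts, against 3.23, 2.64 and 1.91 FPKM in the Myl7-low hearts, with most of the difference in WT1. Cacna1d, an L-type calcium channel of atrial and pacemaker cells, did not overlap but differed by only 0.96 ± 0.18 log2 units. Chrm2, Adora1, Kcnk3 and Kcna5 overlapped, and Kcna5, which carries the ultrarapid potassium current of human atria, had a log2 difference of -0.57 ± 0.32. Tbx5 was the only one of 7 atrial transcription factors that was higher, also without WT1. This T-box factor had 80.4, 19.6 and 15.1 FPKM in WT1, WT3 and KO2, against 4.22, 7.7 and 7.28 FPKM in WT2, KO1 and KO3. Nr2f2, which holds atrial identity in mice, had 17.3, 4.61 and 4.17 FPKM in the Myl7-high hearts, against 3.32, 3.47 and 3.75 FPKM in the Myl7-low hearts, apart by a narrow margin in WT3 and KO2. Of 10 transcription factors used in both chambers none was higher or lower; Nkx2-5 had 50.9, 54.1 and 47 FPKM in the Myl7-high hearts, against 47.5, 39.8 and 37.4 FPKM in the Myl7-low hearts and Gata6 differed by 0.51 ± 0.13 log2 units without overlap.

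Further genes outside the atrial lists had the same profile. Sbk3, an SH3-binding-domain kinase of striated muscle, had 366, 30.3 and 15.5 FPKM in WT1, WT3 and KO2, against 0.51, 0.94 and 0.57 FPKM in WT2, KO1 and KO3. Its relative Sbk2 had 149, 19.9 and 9.1 FPKM in the Myl7-high hearts, against 0.52, 1.68 and 3.62 FPKM in the Myl7-low hearts. Tmem163, a zinc transporter of vesicles, had 133, 12.8 and 3.86 FPKM in the Myl7-high hearts, against 0.08, 0.13 and 0.09 FPKM in the Myl7-low hearts. Ppp1r1b, the phosphatase inhibitor DARPP-32, had 71.5, 13.7 and 5.13 FPKM in the Myl7-high hearts, against 0.06, 0.22 and 0.78 FPKM in the Myl7-low hearts. Mlana, known from melanocytes, had 91.6, 6.56 and 1.58 FPKM in the Myl7-high hearts, against 0, 0.34 and 0.17 FPKM in the Myl7-low hearts, and Lmntd1, with a lamin tail domain, had 55.2, 7.9 and 5.17 FPKM in the Myl7-high hearts, against 0.17, 0.14 and 0.07 FPKM in the Myl7-low hearts. In all 6 genes WT1 was highest, WT3 next and KO2 after it, and all 6 were also higher without WT1. Tmem163, Ppp1r1b, Mlana and Lmntd1 passed the filter only through the Myl7-high hearts, which fixed their direction. The log2 differences ranged from 3.88 ± 1.32 for Sbk2 to 5.61 ± 1.39 for Sbk3.

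Genes outside every list, picked after their values were seen, extended these groups. Cacna1h, a T-type calcium channel of pacemaker and atrial cells, had 33.7, 7.71 and 5.1 FPKM in WT1, WT3 and KO2, against 0.77, 1.64 and 0.96 FPKM in WT2, KO1 and KO3. Cacna2d2, an auxiliary calcium channel subunit, had 3.75, 5.57 and 3.22 FPKM in the Myl7-high hearts, against 0.32, 0.43 and 0.27 FPKM in the Myl7-low hearts. Fgf12, an intracellular fibroblast growth factor homologue that binds sodium channels, had 44.1, 2.82 and 1.43 FPKM in the Myl7-high hearts, against 0.02, 0.03 and 0.03 FPKM in the Myl7-low hearts. Among the 3 channel-related genes the log2 differences were 2.88 ± 0.83, 2.45 ± 0.23 and 3.65 ± 1.40. Myl9, a regulatory light chain of smooth muscle, had 259, 110.2 and 63.6 FPKM in the Myl7-high hearts, against 27.2, 22.4 and 27 FPKM in the Myl7-low hearts. Sfrp5, a secreted Wnt antagonist of fat and other tissues, had 1.63, 5.26 and 4.41 FPKM in WT1, WT3 and KO2, against 0.10, 0.19 and 0.32 FPKM in WT2, KO1 and KO3. Sost, the Wnt antagonist sclerostin known from bone, had 6.79, 4.46 and 4.05 FPKM in the Myl7-high hearts, against 0.47, 0.49 and 0.37 FPKM in the Myl7-low hearts. Ache, acetylcholinesterase, which ends vagal signals, had 5.51, 2.94 and 2.18 FPKM in the Myl7-high hearts, against 0.70, 1.05 and 0.71 FPKM in the Myl7-low hearts. Without WT1 the log2 differences of Myl9, Sfrp5, Sost and Ache were 1.70, 2.93, 2.33 and 1.21. Cacna2d2, Fgf12, Sfrp5 and Sost passed the filter only through the Myl7-high hearts, which fixed their direction. Gm2457 and Gm2564 carried identical values in every heart and are counted as separate genes among the 211.

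No ventricular gene was lower on the Myl7-high side by the rule, although WT1 was the lowest heart for 7 of the 9 compared and had little Myl2, Myl3 and Irx4. Of 10 genes listed, 9 passed the filter, and 8 of these had a negative log2 difference. Myl2 had 81, 9735 and 13034 FPKM in WT1, WT3 and KO2, against 11784, 14294 and 14329 FPKM in WT2, KO1 and KO3. Myl3, the ventricular essential light chain, had 188, 7011 and 8171 FPKM in the Myl7-high hearts, against 7964, 8807 and 8344 FPKM in the Myl7-low hearts. Irx4 had 0.08, 12.4 and 21.5 FPKM in the Myl7-high hearts, against 19, 19.5 and 17.5 FPKM in the Myl7-low hearts, and KO2 was the highest of all 6 hearts. WT3 and KO2 thus carried atrial genes beside a ventricular level of light chains, and WT1 carried them with few ventricular transcripts. The median log2 difference of the ventricular list was -0.58 with WT1 and -0.11 without it, and it was -0.86 within WT/TAC and 0.15 within KO/TAC hearts. The summed level of the list was 314 FPKM in WT1 and 17018 and 21415 FPKM in WT3 and KO2, against 21169 to 23317 FPKM in the Myl7-low hearts. Myh7, the slow myosin heavy chain that loaded mouse ventricles re-express, had 14.4, 173 and 76.3 FPKM in WT1, WT3 and KO2, against 1327, 93.8 and 45.3 FPKM in WT2, KO1 and KO3. WT2 alone was high.

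Sarcomere genes of both chambers differed little. None of 17 was higher or lower, but Tnnt2, Tnnc1, Myom1, Csrp3 and Myoz2 lay lower without overlap, at log2 differences of -0.27 ± 0.13, -0.62 ± 0.37, -0.50 ± 0.26, -0.55 ± 0.03 and -0.35 ± 0.10. Over all genes compared, 8.39% lay lower without overlap and 1.69% were higher by the full rule. Csrp3, a Z-disc LIM protein, had 1278, 1246 and 1240.1 FPKM in the Myl7-high hearts, against 1891, 1776 and 1859.7 FPKM in the Myl7-low hearts, with little spread on either side. None of 19 calcium cycling genes was higher or lower, nor was any of 16 potassium, sodium and pacemaker channel genes compared. Among the calcium genes Ryr2 lay higher and Asph lower without overlap. Among the channel genes Kcnq1, Kcnj11, Kcnj12, Abcc8 and Kcnn2 lay higher without overlap and Kcnj8 lower. Of all genes compared, 9.23% lay higher without overlap. In that channel list Kcnh2, which carries the rapid delayed rectifier current, had 60.2, 28.1 and 39.3 FPKM in WT1, WT3 and KO2, against 10.1, 23.6 and 32.5 FPKM in WT2, KO1 and KO3, and overlapped because WT3 lay below KO3. Also in it, Abcc8, the sulphonylurea receptor of atrial ATP-sensitive potassium channels in mice, had 40, 12.4 and 10.1 FPKM in WT1, WT3 and KO2, against 8.98, 8.3 and 8.78 FPKM in WT2, KO1 and KO3. Of 13 conduction system markers, 10 were compared and 2 were higher, Rgs6 among them; without WT1 the 2 were Cntn2 and Shox2 instead. Hcn4, the main sinus node channel, had 0.38, 3.55 and 4.33 FPKM in WT1, WT3 and KO2, against 1.68, 1.62 and 1.91 FPKM in the Myl7-low hearts, and Cntn2, a contactin of conduction fibres, had 0.07, 2.86 and 3.43 FPKM in the Myl7-high hearts, against 0.61, 0.43 and 0.44 FPKM in the Myl7-low hearts. For both, WT3 and KO2 lay above all Myl7-low hearts and WT1 below them.

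Several fat-specific genes were higher in WT3 and KO2 and at or under 1.33 FPKM in WT1. Of 20 adipocyte markers, 17 passed the filter, 8 were higher and none was lower, and 10 were higher without WT1. The shares of higher genes over all genes compared were 1.69% and, without WT1, 1.13%. The median log2 difference of the list was 1.10, and 1.40 without WT1. Adipoq, the fat hormone adiponectin, had 0.31, 22.1 and 10.2 FPKM in WT1, WT3 and KO2, against 0, 0.24 and 0.06 FPKM in WT2, KO1 and KO3. Cfd, the complement protease adipsin, had 1.33, 167 and 36.5 FPKM in the Myl7-high hearts, against 0, 0.40 and 0.25 FPKM in the Myl7-low hearts. WT1 stood above the Myl7-low hearts for both genes, but by about 1 FPKM or less. Car3, carbonic anhydrase 3, had 0.41, 49.3 and 26 FPKM in the Myl7-high hearts, against 0, 0.33 and 0.05 FPKM in the Myl7-low hearts, and Cidec, a lipid droplet protein, had 0.15, 22.9 and 7.29 FPKM in the Myl7-high hearts, against 0, 0.13 and 0 FPKM in the Myl7-low hearts. The log2 differences were 5.01 ± 1.93 for Cfd, 4.12 ± 1.81 for Car3, 3.29 ± 1.46 for Adipoq and 3.18 ± 1.53 for Cidec. Without WT1 they were 6.82, 5.89, 4.71 and 4.64. Cfd, Car3, Adipoq and Cidec passed the filter only through the Myl7-high hearts, which fixed their direction. Cyp2e1, a cytochrome P450 outside the list, had 1.25, 38.9 and 15.5 FPKM in WT1, WT3 and KO2, against 0.04, 0.45 and 0.24 FPKM in the Myl7-low hearts. Its direction was fixed by the filter in the same way.

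Other members of the list took different courses in WT1. Scd1, stearoyl-CoA desaturase, had 13, 20.1 and 17.3 FPKM in WT1, WT3 and KO2, against 5.42, 4.64 and 4.14 FPKM in WT2, KO1 and KO3, and Fasn, fatty acid synthase, had 3.6, 8.66 and 5.68 FPKM in the Myl7-high hearts, against 2.39, 2.4 and 2.29 FPKM in the Myl7-low hearts. Both genes stood above all Myl7-low hearts in each of the Myl7-high hearts. Dgat2, which makes triglycerides, was lowest in WT1, with 75.1, 291 and 327 FPKM in WT1, WT3 and KO2, against 179.9, 217 and 251 FPKM in WT2, KO1 and KO3. The summed level of the list was 191 FPKM in WT1 and 829 and 618 FPKM in WT3 and KO2, against 314 to 420.4 FPKM in the Myl7-low hearts, and 4 of its 17 members compared had a negative log2 difference. Pck1, a gluconeogenic enzyme active in fat, had 0.05, 18.9 and 5.1 FPKM in the Myl7-high hearts, against 0.02, 0.06 and 0 FPKM in the Myl7-low hearts and its level in WT1 lay within the Myl7-low range. Pparg, the adipocyte nuclear receptor, had 3.54, 7.56 and 6.3 FPKM in the Myl7-high hearts, against 6.56, 8.65 and 8.46 FPKM in the Myl7-low hearts and was not among the genes higher in WT3 and KO2. Of 9 brown adipocyte markers 6 were compared and none was higher or lower. Ucp1, the uncoupling protein of brown fat, was listed at 0, 5.24 and 2.65 FPKM in WT1, WT3 and KO2 and at 0 in all 3 Myl7-low hearts. It was the only brown fat marker that was higher without WT1, and it passed the filter only through the Myl7-high hearts. Cidea, which the mouse heart also expresses, had 8.31, 45.2 and 30.3 FPKM in the Myl7-high hearts, against 42.8, 34.9 and 37 FPKM in the Myl7-low hearts. Lep, the fat hormone leptin, did not pass the filter, at 0.02, 0.20 and 0.19 FPKM in WT1, WT3 and KO2, against 0, 0.02 and 0 FPKM in WT2, KO1 and KO3.

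**Figure D2:**
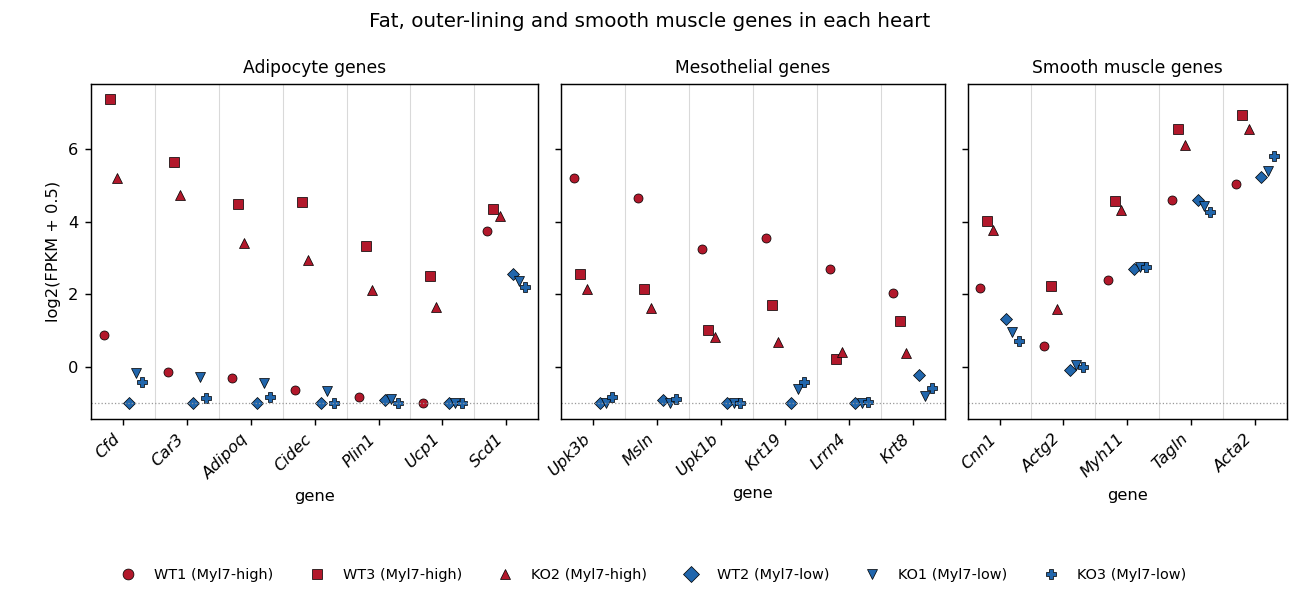
Levels of adipocyte, mesothelial and smooth muscle genes, as log2(FPKM + 0.5) on the vertical axis, in WT1, WT3 and KO2 (red) and WT2, KO1 and KO3 (blue), one point per heart; the dotted line is 0 FPKM. WT3 and KO2 lead for fat genes, with Cfd at 167 and 36.5 FPKM, while WT1 leads for the mesothelial genes, with Upk3b at 36.2 FPKM.

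Mesothelial genes were high in all 3 Myl7-high hearts. Of 14 markers of this outer lining, 12 passed the filter, 8 were higher and none lower, with a median log2 difference of 1.96. Without WT1, 5 were higher and the median was 1.33. The share of higher genes over all genes compared was 1.69%. Upk3b, Msln, Upk1b and Krt19 passed the filter only through the Myl7-high hearts. This fixed their direction, and with it part of the count of 8. Upk3b, an uroplakin of mesothelial cells, had 36.2, 5.41 and 3.92 FPKM in WT1, WT3 and KO2, against 0, 0 and 0.07 FPKM in WT2, KO1 and KO3. Msln, mesothelin, had 24.5, 3.93 and 2.6 FPKM in the Myl7-high hearts, against 0.03, 0 and 0.04 FPKM in the Myl7-low hearts, and Upk1b was listed at 9.04, 1.53 and 1.29 FPKM in the Myl7-high hearts and at 0 in every Myl7-low heart. Krt19, a keratin, had 11.2, 2.75 and 1.1 FPKM in the Myl7-high hearts, against 0, 0.16 and 0.25 FPKM in the Myl7-low hearts. These genes ran nearly in the order of the atrial light chains, with WT1 highest in 11 of the 12 members compared. The summed level of the list was 147, 31.6 and 19.3 FPKM in WT1, WT3 and KO2, against 19.9, 6.83 and 6.75 FPKM in WT2, KO1 and KO3. The gene Wt1, a Wilms tumour transcription factor of mesothelium, did not separate the sides, with 2.98, 2.9 and 1.3 FPKM in the Myl7-high hearts, against 2.8, 1.92 and 1.43 FPKM in the Myl7-low hearts.

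The 5 smooth muscle genes described here were all highest in WT3, with KO2 next. Of 11 members, 3 were higher with WT1 and 6 without it, and none was lower, against 1.69% higher over all genes compared. WT1 was the highest heart for 2 of the 11. The summed level of the list was 934, 1641 and 1201 FPKM in WT1, WT3 and KO2. It was 1965, 1199 and 1204 FPKM in WT2, KO1 and KO3, so WT2 was highest. Cnn1, a calponin, had 4.01, 15.7 and 13.1 FPKM in WT1, WT3 and KO2, against 2.0, 1.46 and 1.14 FPKM in the Myl7-low hearts. Actg2, an enteric smooth muscle actin, had 1.0, 4.17 and 2.55 FPKM in the Myl7-high hearts, against 0.44, 0.55 and 0.51 FPKM in the Myl7-low hearts. Myh11, the smooth muscle myosin heavy chain, had 4.79, 23.2 and 19.7 FPKM in WT1, WT3 and KO2, against 5.96, 6.22 and 6.22 FPKM in WT2, KO1 and KO3. Tagln, transgelin, had 23.7, 94.1 and 69.2 FPKM in the Myl7-high hearts, against 23.9, 21.1 and 18.8 FPKM in the Myl7-low hearts, and Acta2 had 32.2, 122 and 93.1 FPKM in the Myl7-high hearts, against 36.9, 41.4 and 55.4 FPKM in the Myl7-low hearts. In these last 3 genes WT1 lay at or below the Myl7-low hearts or within their range, and WT3 and KO2 above them.

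Smaller groups from other tissues held at most 2 higher genes each, where 1.69% of all genes compared were higher. Of 12 valve and cartilage markers, 6 were compared and Cytl1 and Chad were higher, also without WT1. Cytl1, a secreted cytokine-like protein, had 69.3, 46.4 and 30.9 FPKM in WT1, WT3 and KO2, against 5.51, 7.42 and 18.1 FPKM in the Myl7-low hearts, and Chad, chondroadherin, had 0.42, 6.15 and 1.57 FPKM in the Myl7-high hearts, against 0.12, 0.09 and 0.09 FPKM in the Myl7-low hearts. Of 9 endocardial and venous markers, 6 were compared and Plvap was higher, as was Cytl1, which is in both lists. Plvap, of fenestrated and venous endothelium, had 118, 15.2 and 11.5 FPKM in the Myl7-high hearts, against 6.11, 7.4 and 10.9 FPKM in the Myl7-low hearts, with WT1 far above the rest. Fbln1 was the only one of 16 fibroblast markers that was higher, with 120.0, 72.1 and 48.2 FPKM in WT1, WT3 and KO2, against 26.4, 31.7 and 33.8 FPKM in WT2, KO1 and KO3. Neither Fbln1 nor Plvap was higher without WT1. Mbp, a myelin protein, was higher among 8 neuron and Schwann cell markers compared, with 7.75, 4.1 and 2.61 FPKM in the Myl7-high hearts, against 0.95, 1.59 and 0.75 FPKM in the Myl7-low hearts. Tnni1, the slow skeletal and fetal cardiac troponin I, was higher among 7 skeletal muscle markers compared, with 1.48, 0.90 and 0.75 FPKM in the Myl7-high hearts, against 0.13, 0.14 and 0 FPKM in the Myl7-low hearts. Chad and Tnni1 passed the filter only through the Myl7-high hearts, which fixed their direction. None of the 7 lung and airway markers with an identifier passed the filter, and their summed level was 0.33 to 0.60 FPKM in the Myl7-high hearts, against 0.40 to 0.92 FPKM in the Myl7-low hearts. Of the 5 mast cell markers compared, none was higher or lower with all hearts, and Mcpt4 and Tpsb2 were higher without WT1.

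**Figure D3:**
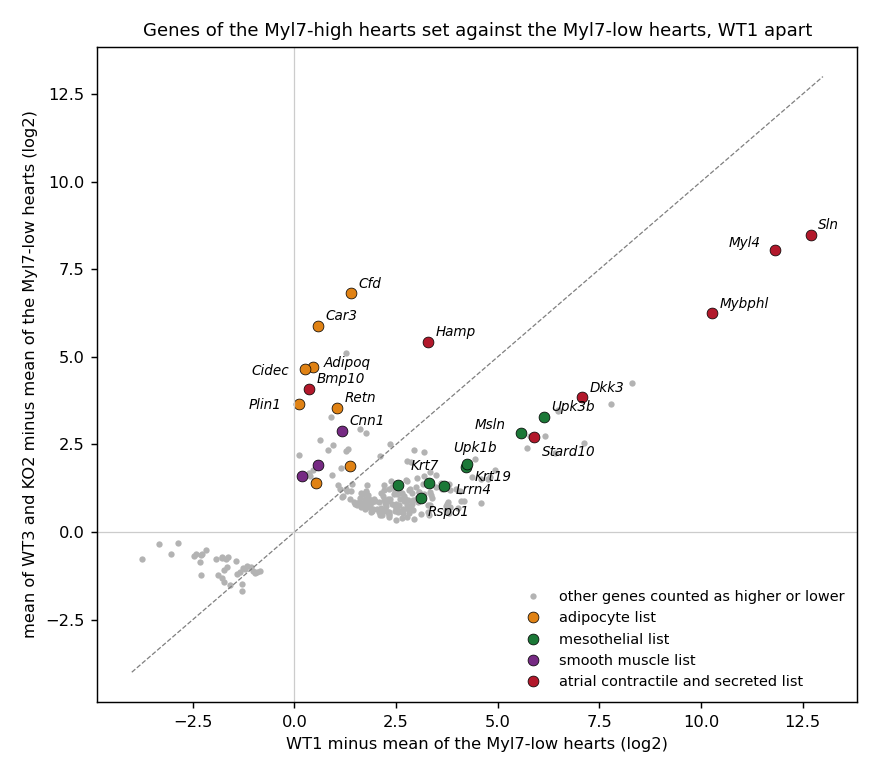
Log2 difference of WT1 from the mean of the Myl7-low hearts (horizontal) against that of WT3 and KO2 averaged (vertical), for each gene with a symbol that was higher or lower; the dashed line marks equal differences. Adipoq, Cidec and Plin1, with Bmp10, lie near 0 on the WT1 axis, whereas Sln, Myl4, Mybphl and the mesothelial genes lie below the line, where WT1 is farthest from the Myl7-low hearts.

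The 35 lower genes had much smaller differences, none beyond -1.76. Of the 35, 5 belonged to a list used here, Cavin4, Rsad2, Cx3cr1, Ccr2 and Nkg7. The genes described next stood among the largest differences. Cd74, the invariant chain of MHC class II, had 47.3, 122 and 183 FPKM in WT1, WT3 and KO2, against 184, 342 and 211 FPKM in WT2, KO1 and KO3. H2-Aa, the alpha chain of the class II molecule I-A, had 22.4, 45.4 and 84.8 FPKM in the Myl7-high hearts, against 87.6, 171 and 97.7 FPKM in the Myl7-low hearts. H2-Ab1, its beta chain, had 19.7, 53.8 and 74.2 FPKM in the Myl7-high hearts, against 78.5, 149 and 80.4 FPKM in the Myl7-low hearts. KO2 and WT2 lay next to each other across the divide in all 3 genes, and none of them was lower without WT1. Gbp6, an interferon-induced GTPase, had 3.37, 6.53 and 8.91 FPKM in the Myl7-high hearts, against 16.1, 30.9 and 12.5 FPKM in the Myl7-low hearts and was lower without WT1 as well, as were Mpeg1, H2-Q7, Tgtp1 and Tgtp2. Mpeg1, a pore-forming protein of macrophages, had 2.92, 3.02 and 3.59 FPKM in WT1, WT3 and KO2, against 6.97, 9.8 and 5.91 FPKM in WT2, KO1 and KO3. Tgtp1 and Tgtp2 are near-identical copies, so their split is uncertain, and reads of H2 class I genes such as H2-Q7 can likewise be shared with relatives.

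Genes outside the lists, again picked after their values were seen, included chemokines and receptors of the same processes. Cxcl9, an interferon-induced attractant of T cells, had 0.42, 1.03 and 1.88 FPKM in WT1, WT3 and KO2, against 2.33, 4.04 and 2.01 FPKM in WT2, KO1 and KO3. Fcgr4, an Fc receptor of mouse myeloid cells, had 0.56, 0.16 and 0.80 FPKM in the Myl7-high hearts, against 1.42, 3.13 and 1.95 FPKM in the Myl7-low hearts. Casp1, the inflammasome protease, had 0.95, 0.72 and 1.35 FPKM in the Myl7-high hearts, against 2.18, 2.68 and 2.72 FPKM in the Myl7-low hearts. Gbp4, an interferon-induced GTPase named by rule, had 1.2, 2.44 and 4.43 FPKM in the Myl7-high hearts, against 7.01, 5.87 and 5.27 FPKM in the Myl7-low hearts. Their log2 differences were -1.09 ± 0.47 for Cxcl9, -1.41 ± 0.39 for Fcgr4, -1.02 ± 0.19 for Casp1 and -1.16 ± 0.46 for Gbp4. Without WT1 they were -0.74, -1.48, -1.01 and -0.77, so that Cxcl9 and Gbp4 were then no longer lower by the rule. Without KO1, Cd74, H2-Ab1, H2-Q7, Mpeg1 and Ccr2 no longer met the rule for lower genes, and without WT3 neither H2-Q7 nor Nkg7 did. Other immune genes outside the lists were higher, Cd209f by 1.91 ± 0.55, Cd209g by 1.54 ± 0.53 and Fcna by 1.34 ± 0.56 log2 units. Cd209f and Cd209g passed the filter only through the Myl7-high hearts, which fixed their direction.

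Of 11 interferon response genes compared, all had a negative log2 difference, 6 lay lower without overlap and only Rsad2 was lower by the full rule, though not without WT1. Over all genes compared, 8.39% lay lower without overlap and 0.280% were lower by the full rule. Rsad2, the antiviral enzyme viperin, had 0.70, 3.66 and 3.59 FPKM in the Myl7-high hearts, against 5.84, 6.69 and 5.95 FPKM in the Myl7-low hearts. Ifit1 had 1.41, 1.11 and 1.08 FPKM in the Myl7-high hearts, against 2.31, 2.66 and 2.38 FPKM in the Myl7-low hearts, also with little spread. The list's median was -0.71 with WT1, -0.69 without it, -0.67 within WT/TAC and -0.46 within KO/TAC hearts. Of 14 macrophage markers, 7 had a positive and 7 a negative log2 difference, with a median of 0.05. WT1 was the highest heart for 9 of them. Only Cx3cr1 and Ccr2, chemokine receptors of resident and recruited cells, were lower, also without WT1. Cx3cr1 had 0.29, 0.52 and 1.01 FPKM in WT1, WT3 and KO2, against 2.33, 3.13 and 1.89 FPKM in WT2, KO1 and KO3, and Ccr2 had 0.37, 0.42 and 0.59 FPKM in the Myl7-high hearts, against 1.14, 2.71 and 1.56 FPKM in the Myl7-low hearts. Cd68, a lysosomal protein of all macrophages, overlapped, with 18.3, 14.1 and 10.5 FPKM in the Myl7-high hearts, against 9.84, 13.7 and 12.9 FPKM in the Myl7-low hearts, and the list's summed level was 246 to 446 FPKM in the Myl7-high hearts against 276 to 307 FPKM in the Myl7-low hearts. Nkg7, of cytotoxic lymphocytes, was the only one of 5 lymphocyte markers compared that was lower, with 0.40, 0.08 and 0.48 FPKM in the Myl7-high hearts, against 0.66, 2.59 and 0.67 FPKM in the Myl7-low hearts. Ccr2 and Nkg7 passed the filter only through the Myl7-low hearts, which fixed their direction. How far the leukocyte content of the samples takes part in the interferon values was not tested.

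Several genes met the rule for lower genes only with WT1 included. Cavin4, a caveolar coat protein of muscle, had 23.6, 42.7 and 47.3 FPKM in WT1, WT3 and KO2, against 81.2, 71.9 and 77.7 FPKM in the Myl7-low hearts. Ivns1abp, a kelch protein bound to actin, had 63.6, 384 and 364 FPKM in the Myl7-high hearts, against 551, 418 and 437 FPKM in the Myl7-low hearts. Gmnn, geminin, a brake on DNA replication, had 8.6, 26.4 and 36.4 FPKM in WT1, WT3 and KO2, against 46.9, 46.1 and 50.9 FPKM in WT2, KO1 and KO3. Sh2d4a, an adaptor protein, had 1.03, 6.59 and 8.64 FPKM in the Myl7-high hearts, against 16, 10.9 and 9.75 FPKM in the Myl7-low hearts, and WT1 was far below every other heart. The same held for Sh3rf2, a scaffold with a ubiquitin ligase domain, at 0.48, 6.35 and 8.53 FPKM in the Myl7-high hearts, against 10.6, 9.14 and 8.55 FPKM in the Myl7-low hearts. Meig1, a gene of meiosis and spermatogenesis, had 0, 2.69 and 4.4 FPKM in the Myl7-high hearts, against 5.83, 7.74 and 5.38 FPKM in the Myl7-low hearts. None of these 6 genes was lower by the rule without WT1, where their log2 differences were between -0.77 for Meig1 and -0.31 for Ivns1abp. All 6 still did not overlap and missed only the minimum size. Cavin4 went from -1.07 to -0.77, and WT1 alone lay at -1.69 log2 units from the mean of the Myl7-low hearts.

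**Figure D4:**
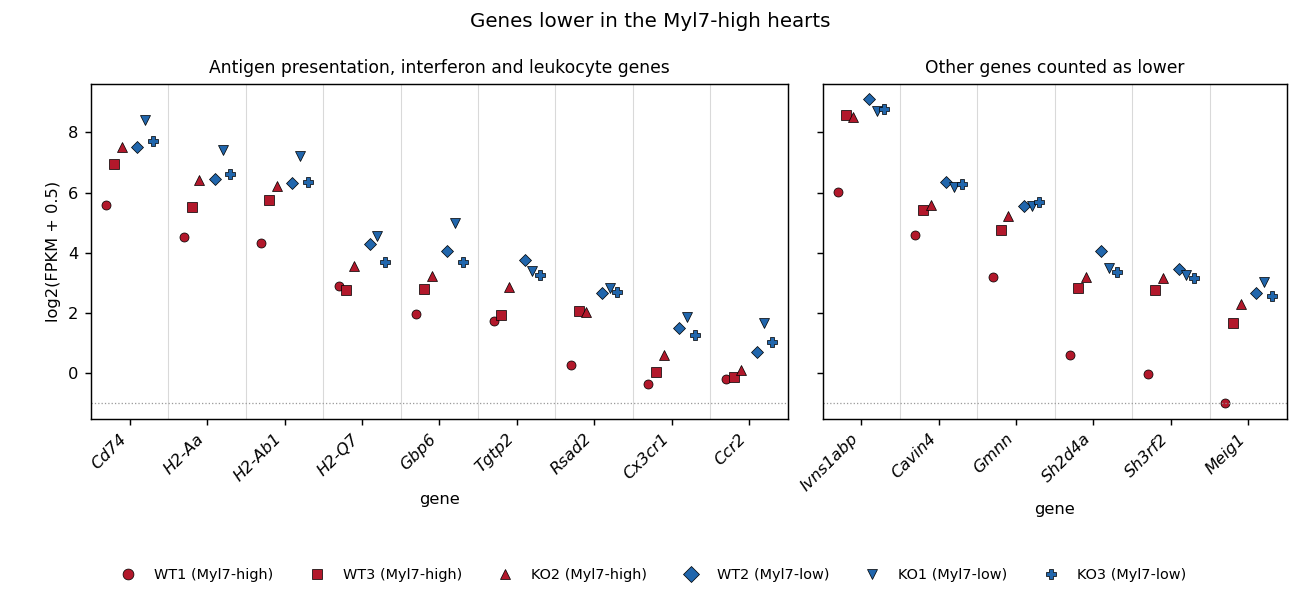
Levels of genes lower in WT1, WT3 and KO2 (red) than in WT2, KO1 and KO3 (blue), as log2(FPKM + 0.5) on the vertical axis, one point per heart; the dotted line is 0 FPKM. The sides are apart by narrow gaps for Cd74, H2-Aa and H2-Ab1, and WT1 is far below all other hearts for Sh2d4a, Sh3rf2 and Meig1.

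None of the endothelial and metabolic genes listed was higher or lower, though many lay slightly lower. The share of all genes compared that lay lower without overlap was 8.39%. Of 15 endothelial markers, 5 lay lower without overlap, among them Fabp4 with 265, 442 and 588 FPKM in WT1, WT3 and KO2, against 730.4, 738 and 966 FPKM in WT2, KO1 and KO3, and the fatty acid transporter Cd36 with 209.8, 259 and 361 FPKM in the Myl7-high hearts, against 399, 487 and 675 FPKM in the Myl7-low hearts. Kdr, a VEGF receptor of capillary endothelium, had 21.9, 35 and 41 FPKM in the Myl7-high hearts, against 52.2, 68 and 47 FPKM in the Myl7-low hearts, whereas Vwf, von Willebrand factor of larger vessels, had 38.7, 19 and 18.9 FPKM in the Myl7-high hearts, against 9.91, 8.94 and 19.8 FPKM in the Myl7-low hearts and overlapped. Pecam1, of all endothelium, overlapped too, with 116, 84.9 and 72.4 FPKM in the Myl7-high hearts, against 71.8, 79.3 and 79.4 FPKM in the Myl7-low hearts. Of 36 respiratory complex I genes, 32 had a negative log2 difference, with a median of -0.18 and of -0.04 without WT1. Fatty acid oxidation genes were negative in 21 of 22, with a median of -0.29 with WT1 and 0.04 without it. WT1 was the lowest heart for 20 of those 22. Fabp3, the cardiac fatty acid-binding protein, was the one member that lay lower without overlap, at 2484, 5507 and 6309 FPKM in WT1, WT3 and KO2, against 6962, 6709 and 7533 FPKM in the Myl7-low hearts. Ndufb3, a complex I subunit, had 149, 172 and 212 FPKM in the Myl7-high hearts, against 272, 258 and 256 FPKM in the Myl7-low hearts, without overlap. The medians of complexes II to V, the tricarboxylic acid cycle, glycolysis and the creatine list were -0.12, -0.19, -0.13 and -0.37, and -0.02, -0.06, 0.02 and -0.07 without WT1.

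Genes of the hypertrophic response did not separate along the split. None of 15 was higher or lower, and Acta1, the skeletal actin that loaded hearts re-express, had 12.2, 2497 and 291 FPKM in WT1, WT3 and KO2, against 5114, 1498 and 795 FPKM in WT2, KO1 and KO3. The 14 activated fibroblast markers likewise gave no higher or lower gene, and Postn, periostin, had 12.8, 16.8 and 8.8 FPKM in the Myl7-high hearts, against 114, 17.6 and 12.1 FPKM in the Myl7-low hearts. WT2 was the highest heart for both Acta1 and Postn, and its list medians were 1.196 and 1.253 log2 units above the mean of the Myl7-low hearts. Red blood cell genes varied among the Myl7-low hearts from a median of 1.27 in WT2 to -1.26 in KO3, with the Myl7-high hearts between them. Of 10 cell cycle genes compared none was higher or lower, and Ube2c, a mitotic ubiquitin-conjugating enzyme, had 0.92, 1.39 and 2.31 FPKM in the Myl7-high hearts, against 5.06, 2.41 and 2.08 FPKM in the Myl7-low hearts.

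**Figure D5:**
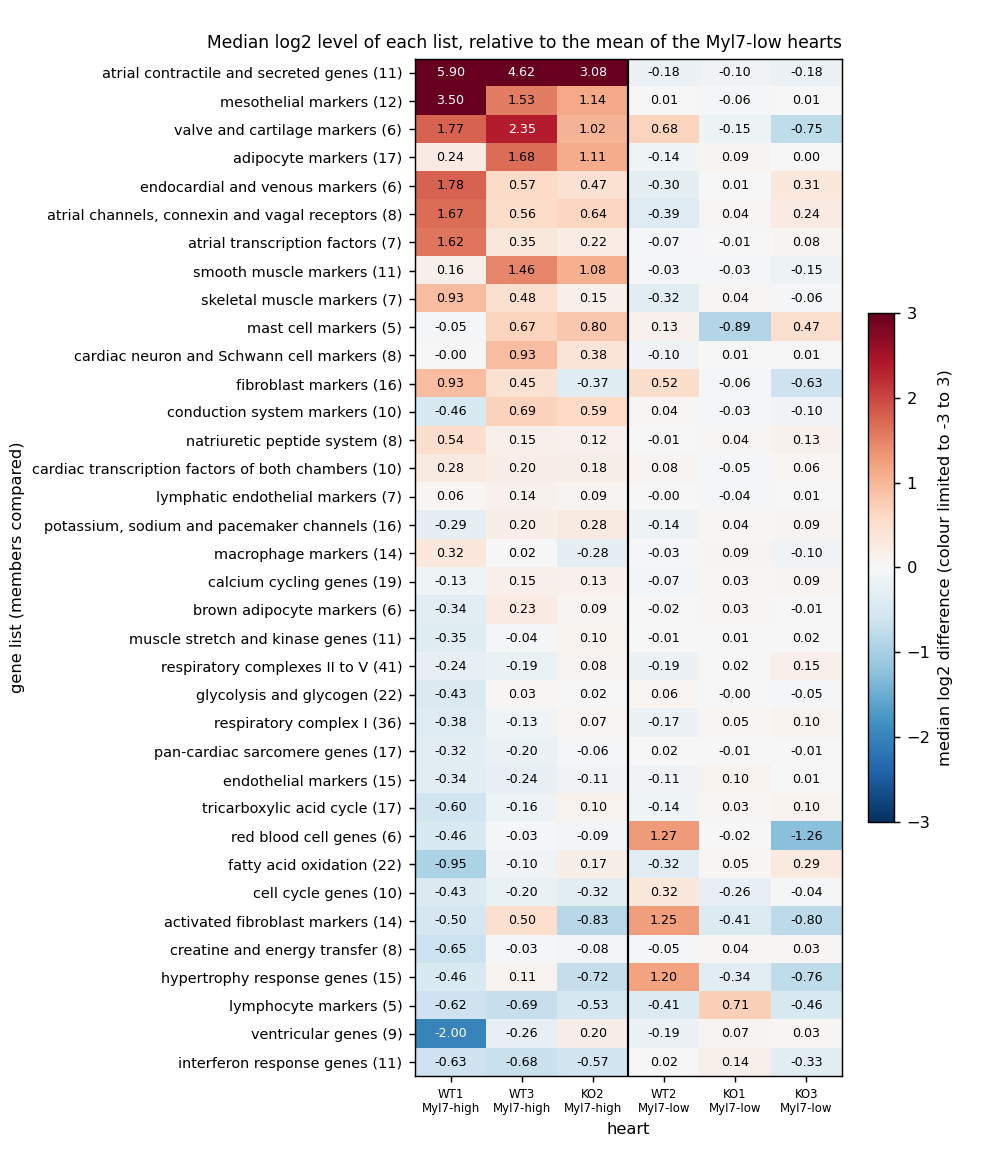
Median log2 level of each gene list with at least 5 members compared, in each heart, relative to the mean of the Myl7-low hearts; columns are hearts, rows are lists with the number of members compared, and colour runs from blue (lower) to red (higher). The atrial list stands at 5.90, 4.62 and 3.08 in WT1, WT3 and KO2, the adipocyte list at 0.24, 1.68 and 1.11, and the ventricular list at -2.003, -0.255 and 0.197.

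Genotype crossed the split in part. Of the 211 higher genes, 208 had a log2 difference of at least 1 within WT/TAC, from WT1 and WT3 against WT2, and 87 had one within KO/TAC, from KO2 against KO1 and KO3. Both applied to 85 genes, among them Myl4, Sln, Mybphl, Dkk3, Hamp, Bmp10, Adipoq, Cfd, Upk3b and Msln. Of the 35 lower genes, 31 reached the same size within WT/TAC, 7 within KO/TAC and 4 within both. With genotype as a term, 180 of the 211 higher and 26 of the 35 lower genes were also called. The term changed only the size of the difference, and the rule of no overlap still used the unadjusted values. All 211 and all 35 had the same direction within WT/TAC and within KO/TAC hearts, which the rule that the sides do not overlap fixes and which is no separate evidence.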

How the data were processed

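RNA from TAC hearts of 3 WT and 3 KO mice was sequenced on KAPA stranded libraries. The authors deposited 1 table per heart with FPKM values per gene, made, per the submitters' processing notes, with HISAT2 2.0.5 and StringTie 1.3.3. The builds those notes list are hg38 and mm9, without their role, so the tables carry no coordinates here, and fragment counts were not used. Depth was estimated from steps of low FPKM values in 714 single-transcript genes, of whose small values 60.1 to 72.2% fell 0.2 or less from a whole step, where an even spread would give 40%. Gene symbols came from RefSeq, and 129 of 17570 identifiers had none.

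Hearts were split at 1 FPKM of Myl7, and Myl7 was left out. Genes averaging 0.5 FPKM or more entered the comparison as log2(FPKM + 0.5) with pandas 2.3.3 and NumPy 2.4.6 under Python 3.11.15, and the procedure was checked on simulated data. No test was run, because a measured value made the groups. The named genes were the markers of the chambers and of fat, the 15 largest differences in each direction among genes with at least 5 FPKM on the higher side, and from each of 40 lists up to 4 higher or lower members or, failing these, the 2 with the largest difference; other genes were chosen after their values were seen. Of 572 list entries, 559 had an identifier. The split, the members and the lists were chosen with earlier results of these data known. Other pseudocounts, filters, scalings, thresholds, a genotype term and leaving out each heart were tried. Results for some genes are not reported here.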

Additional observations from a re-analysis of the deposited data

Results flagged for a closer look

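S100a8, a calcium-binding protein of neutrophils, had 1.4, 1.25 and 0.21 FPKM in WT1, WT3 and KO2, against 0.54, 0.61 and 0.83 FPKM in WT2, KO1 and KO3. Its log2 difference between Myl7-high and Myl7-low hearts was 0.81 within WT/TAC and -0.78 within KO/TAC, 1.59 apart. Each WT heart with Myl7 lay above the WT heart without it, and the KO heart with Myl7 lay below both KO hearts without it. This difference between the genotypes was not tested, and each side of it rests on 3 hearts.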

How the results depend on the processing

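Of the 211 higher and 35 lower genes, 80 and 16 had a mean of at least 5 FPKM, and 59 and 0 reached a log2 difference of 2. With no minimum difference, 1155 and 1050 did not overlap. A pseudocount of 0.1 gave 74 lower genes and a pseudocount of 1 gave 23. Leaving out each heart gave 140 to 390 higher and 26 to 117 lower genes, fewest without WT1 and most without KO2. Median-ratio scaling, quantile normalization and a genotype term kept 206, 198 and 180 of the 211 and 33, 33 and 26 of the 35. Of 54 named genes that were higher or lower, 16 of the 52 with a value were not without WT1, among them Gja5, Kcnj5, Plvap, Fbln1, Rgs6 and 11 lower genes. Under the genotype term Cavin4, Cd74, H2-Ab1, Nkg7 and Rgs6 were not. Cd74 also dropped out under both scalings, Lmod1 likewise, H2-Aa under quantile normalization and Sh3rf2 under median-ratio scaling. A pseudocount of 1 removed, among others, Ccr2, Lmod1, Nkg7, Rgs6 and Tnni1. None of the called genes named changed direction under these alternatives. For other pseudocounts and filters, the genotype term and each heart left out, the rule of no overlap fixed this. It is no separate evidence there. No paired analysis was made, since the labels pair no hearts. The genotype term instead adjusts the size of the difference for genotype, with overlap still judged on unadjusted values. Fragment counts were not used here, and values under about 0.5 FPKM rest on few fragments.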

Other observations

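Lymphatic endothelial markers were near-level between the sides. None of 7 was higher or lower, and Lyve1, a hyaluronan receptor of lymphatics and resident macrophages, had 17.5, 14.4 and 7.91 FPKM in WT1, WT3 and KO2, against 6.13, 5.94 and 11 FPKM in WT2, KO1 and KO3. None of the 4 neutrophil markers compared was higher or lower either, and S100a9 had 1.99, 0.89 and 0.60 FPKM in the Myl7-high hearts, against 2.18, 1.29 and 1.33 FPKM in the Myl7-low hearts. Of 11 secretory granule genes, 2 passed the filter and overlapped, with Cpe, carboxypeptidase E, at 244, 146 and 118 FPKM in the Myl7-high hearts, against 127, 109 and 146 FPKM in the Myl7-low hearts. Of 10 thymus markers, only Ccl25 passed the filter, with 1.3, 0.36 and 0.32 FPKM in the Myl7-high hearts, against 0.75, 0.76 and 1.5 FPKM in the Myl7-low hearts. Comp, a matrix protein of cartilage and scar, had 21.2, 20.1 and 4.48 FPKM in WT1, WT3 and KO2, against 18.6, 1.64 and 0.92 FPKM in WT2, KO1 and KO3; it overlapped through WT2 and was the most different of the 14 activated fibroblast markers.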
